A study of Homo sapiens with 2 samples.

Results

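The 35 genes described here have been named in earlier studies as targets of the microRNA miR-7. They were found by symbol in the platform's table that pairs probes with genes; the rule uses no measured value, but the list was drawn up with earlier results of these data known. Of the 35 genes, 33 had a probe on the arrays, with 41 probes in all, out of 18638 genes with a symbol. PAK1 and SPATA2 were not analysed here. The samples came from SW620, an established line of human colon carcinoma grown in DMEM with serum. The control group carried control lentiviruses (1 array), and the other group was made to express CDR1AS RNA (1 array). All other labelled conditions were shared by the groups, and no label says whether a group was a pool or a clone. With 1 array per group there was no replicate error and no test, so every value below is a difference between 2 arrays.

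A microRNA is a short RNA that guides an Argonaute protein to messenger RNAs, mostly by pairing of its seed with a complementary stretch of the message. The bound message is then repressed and often degraded. CDR1AS is a circular RNA with many binding sites for miR-7, and it has been described as a sponge that holds miR-7 and as a partner that steers it. miR-671 can direct the cutting of CDR1AS. Many reported targets of miR-7 act in growth factor signalling through PI3K and mTOR, and miR-7 is known as a brake on that pathway in tumour cells.

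The mature sequences are shown because the seed defines which messages the microRNA can pair with. They were taken from RefSeq (GRCh38.p14), are written 5′ to 3′, and have the seed, bases 2 to 8 counted from the 5′ end, in capitals.
hsa-miR-7-5p: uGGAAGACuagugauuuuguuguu
hsa-miR-7-1-3p: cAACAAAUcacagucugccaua
hsa-miR-7-2-3p: cAACAAAUcccagucuaccuaa
hsa-miR-671-5p: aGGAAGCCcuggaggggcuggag
The RNA stretch complementary to the miR-7-5p seed is GUCUUCC. The sequence of miR-7-5p is the same at the MIR7-1 locus (chr9:83969811-83969834, minus strand, within the gene HNRNPK) and at the MIR7-3 locus (chr19:4770700-4770723, plus strand, within MIR7-3HG). The other strands, miR-7-1-3p and miR-7-2-3p, share a different seed with each other. miR-7-2-3p comes from a further locus, MIR7-2 on chromosome 15, whose 5p strand was not among the sequences read here. Within the seed, miR-671-5p differs from miR-7-5p by A7C (miR-7-5p base first, position counted from the 5′ end). The sites in the target messages, the level of miR-7 and circular CDR1AS were not analysed here.

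Each spot's intensity is its median brightness in scanner units, and the 384 blank spots of each array set its floor. Blanks averaged 65.9 ± 1.60 (SD, 384 spots) with control cells and 69.5 ± 1.30 with CDR1AS cells. A probe was called above background where it exceeded the blank mean by 2 SD, at 69.1 and 72.1. The 4 kinds of negative control spot averaged 66.0 to 68.2 and 69.9 to 72.2 on the same arrays, so that a spot just over these limits is hard to tell from background. Repeated positive control spots within an array had an SD between 0.10 and 0.24 in log2 units. Between the arrays the mean raw intensity of these controls was 40400 in control cells and 43800 in CDR1AS cells for the first kind, and 7460 and 11000 for the second, a difference that the SD within an array does not hold. The log2 ratio below is CDR1AS minus control after background correction with an offset of 50 and quantile normalization, which compresses folds of dim spots towards 1. Folds in the authors' deposited table, which holds intensity over the blanks scaled per array, are not compressed; they are given beside the log2 ratio for some targets and plotted for the 31 above background on both arrays.

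Markers of cell types were also read, although they cannot tell SW620 from another colon line. Of 10 colon epithelial markers on the arrays, 9 were above background on both. EPCAM was far above it by both probes, and KRT18 by 1 of its probes. The other KRT18 probes had 156 and 91.4 in control cells against 161 and 91.2 in CDR1AS cells. CDH17 was at background on the control array. On both arrays 5 of the 10 reached 2 times the limit. LGALS4 (122 in control cells and 120.5 in CDR1AS cells), CDX1 (83.2 and 83.4) and KRT20 (82.8 and 92.4) were dim. CDX2 had 170 and 109, a log2 ratio of −0.82. KRT19 went the other way, with 6186 in control cells and 12239 in CDR1AS cells (0.83). EPCAM was lower by both probes (−0.54 and −0.76). Of the 10 epithelial markers, 4 had a log2 ratio above 0 and 6 below, where 47.2% of all genes lay above 0. Of 4 leukocyte markers 3 were above background on both arrays, all dim: CD14 (122 in control cells and 119.7 in CDR1AS cells), CD3E (82.3 and 84.4) and ITGAM (69.3 and 72.6), whereas PTPRC was at background on both. Of 6 fibroblast markers 3 were above background on both arrays, and each of these reached 2 times the limit: DCN (236 and 243, by 1 of its probes), LUM (187 and 162) and PDGFRB (151 and 169). The collagen genes COL1A1, COL1A2 and COL3A1 were not above background on either. Intensity over the blanks, summed over markers, was 71493 in control cells and 66986 in CDR1AS cells for the epithelial list, 76.8 and 69.9 for 4 leukocyte markers, 379 and 368 for 6 fibroblast markers and 91.6 and 116 for 4 endothelial markers. The endothelial gene PECAM1 was above background on the CDR1AS array only (66.4 against 98.3). The part of other cell types in the values below was not tested.

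The reported targets went in both directions on the CDR1AS array, with an SD of their log2 ratios of 0.35 beside 0.29 for all genes. Of the 33 genes with a probe, 31 were above background on both arrays, KLF4 on the CDR1AS array only and EGFR on neither. Of the 32 measured genes, 14 had a log2 ratio above 0 and 18 below, a share of 43.8% above 0 beside 47.2% of all 16685 genes measured. The median was −0.03 with quartiles of −0.14 and 0.11, beside −0.01 with quartiles of −0.10 and 0.09 for all genes. At or past 2-fold, 1 of the 32 targets was higher and 0 were lower, 3.12% in either direction. Of all genes, 0.755% were higher and 0.575% lower (1.33% in either direction). By the authors' deposited table, 3 of the 32 targets were at or past 2-fold higher and 0 lower, beside 3.44% and 2.31% of all genes. The 3 were PAX6, PIK3CD, whose other probe had a deposited fold of 1.04, and KLF4. KLF4 had no deposited value in control cells and was set against the lowest value above background. The log2 ratios of 23 of the 32 targets (71.9%) lay within 0.29, 1 SD of all genes, a range that held 82.8% of all genes.

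**Figure D1:**
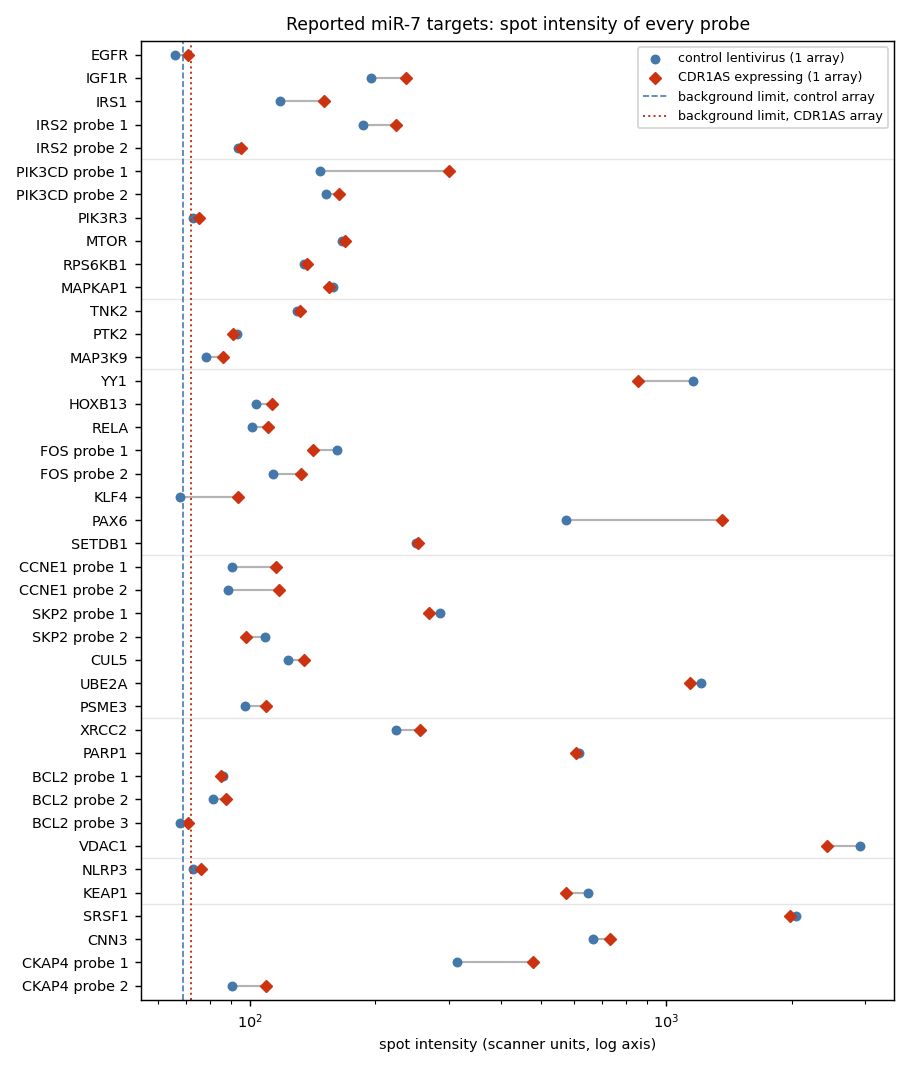
Spot intensity (log axis, scanner units) of all 41 probes of the reported targets, grouped by role, on the control array (circles) and the CDR1AS array (diamonds), with the background limits at 69.1 and 72.1 as vertical lines. PAX6, 1 of the PIK3CD probes and KLF4 show wide gaps, and EGFR lies at background.

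The targets were also split by signal. On both arrays, 17 of the 32 targets reached at least 2 times the background limit and 15 were dimmer. Of the 17, 6 lay above 0 and 11 below (median −0.11). The 7396 measured genes that reached the same mark had a median of −0.01, with 48.5% above 0. Among the 15 dimmer targets 8 had a log2 ratio above 0 and 7 one below, and their median was 0.03, beside −0.01 for the 9289 dimmer genes, of which 46.1% were above 0.

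The receptor IGF1R and the adaptors IRS1 and IRS2, which link insulin and IGF receptors to PI3K, were slightly higher on the CDR1AS array. IRS1 had an intensity of 118 in control cells and 151 in CDR1AS cells, a log2 ratio of 0.29 and a deposited fold of 1.49. IGF1R had 195 and 237, a log2 ratio of 0.19 and a deposited fold of 1.25. For IRS2 the first probe gave 187 and 224 (0.17), and the second, dimmer probe gave 93.5 and 95.2 (−0.07). These 3 ratios, by the first probe for IRS2, are all above 0 but small. Repeated control spots within an array had an SD of up to 0.24. That SD is of single, much brighter spots, so the spread of these ratios between arrays was not measured. The ratios of IRS1 (−0.23) and IGF1R (−0.12) were below 0 when the local background was subtracted. The local background followed the spot's own brightness, as given below, so that setting does not decide the direction. EGFR, the receptor of epidermal growth factor, had 66.1 in control cells and 71.0 in CDR1AS cells, both under the limits, so no fold is given. No difference of EGFR, large or small, could be read from its single probe.

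PIK3CD, the delta catalytic subunit of PI3K, stood out in this pathway, but only by 1 of its probes. The probe AHsV10000057 had an intensity of 147 in control cells and 301 in CDR1AS cells. Its log2 ratio was 0.99, a 1.98-fold difference, and its deposited fold was 2.72. The probe H300021190 of the same gene had 152 and 163, with a log2 ratio of 0.00 and a deposited fold of 1.04. The probes were annotated to the same reference transcript and were similarly far above the limits, so the gene has no single value. With the median of both probes the log2 ratio was 0.49.

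The other PI3K and mTOR members were within 0.14 of 0 on the log2 scale. The kinase MTOR had 166 in control cells and 169 in CDR1AS cells (−0.09), and its substrate RPS6KB1, the ribosomal S6 kinase, had 134 and 137 (−0.07). MAPKAP1, which encodes the SIN1 subunit of the second mTOR complex, had 158 and 155 (−0.14). All 3 were lower after scaling, although the raw intensities of MTOR and RPS6KB1 were slightly higher on the CDR1AS array, whose blanks were also higher. With the local background subtracted, MTOR (0.17) and MAPKAP1 (0.23) turned to above 0 and RPS6KB1 was at −0.47. PIK3R3, a regulatory subunit of PI3K, was too close to background to be read, with 73.1 and 75.5 (−0.04). Of the 5 members of this group 1 was above 0 and 4 below.

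The kinases outside this pathway differed little. TNK2, a tyrosine kinase that binds active CDC42, had 129 in control cells and 132 in CDR1AS cells (−0.07). PTK2, the focal adhesion kinase, had 92.8 and 90.7 (−0.13), and its deposited fold was 0.752. MAP3K9, a mixed lineage kinase upstream of JNK, had 78.3 and 85.9 (0.06).

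The transcription factor genes held the highest and the lowest log2 ratio of all measured targets. PAX6, a paired box factor known for eye, brain and endocrine development, had an intensity of 574 in control cells and 1360.0 in CDR1AS cells. It was 2.23-fold higher (1.16), ranked 88 from the top of 16685 genes, and its deposited fold was 2.44. It had 1 probe. YY1, a zinc finger factor that can activate or repress genes, had 1158 in control cells and 854 in CDR1AS cells. It was 1.49-fold lower (−0.57), ranked 387 from the bottom, and its log2 ratio lay between −0.59 and −0.50 in all 9 settings. For a gene with 1 probe, both filter settings and the median of probes repeat the main value by construction. The local background of YY1 was above its spot on both arrays (1188 in control cells and 931 in CDR1AS cells).

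KLF4, a factor of differentiated gut epithelium, had 67.9 on the control array, under the limit of 69.1, and 93.5 on the CDR1AS array. It was therefore at least 1.34-fold higher with the offset of 50. In the deposited table, set against the lowest value above background, it was at least 6.87-fold higher. Neither bound allows for the spread of the blank spots, and KLF4 was left out of the ranges computed from that spread. The size of this difference thus rests on how background was treated, and after subtraction of the local background its log2 ratio was 0.07. The local background was 55.3 in control cells and 71.8 in CDR1AS cells.

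**Figure D2:**
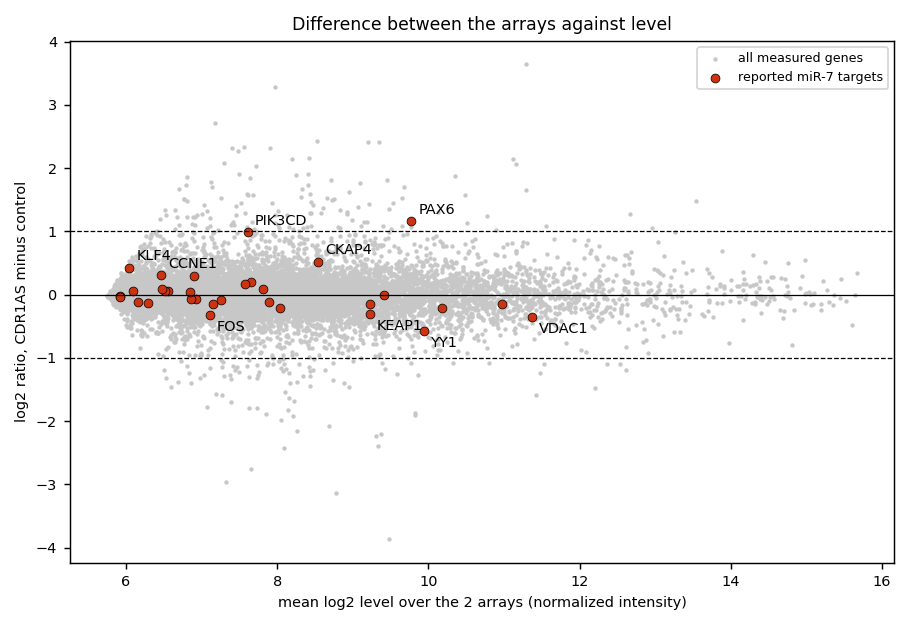
Log2 ratio (CDR1AS minus control) against the mean log2 level of each gene over the 2 arrays, with all 16685 measured genes in grey and the 32 measured targets in red. Dashed lines mark 2-fold; PAX6 is the only target past them, with PIK3CD at 0.99.

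FOS, an immediate early gene, gave opposite directions by its probes. The first probe had 162 in control cells and 142 in CDR1AS cells (−0.32), and the second had 113 and 132 (0.14). RELA, the NF-kB subunit, had 101 and 110.2 (0.05). HOXB13, a homeobox factor of the hindgut and prostate, had 103 and 113 (0.05). SETDB1, a histone H3 lysine methyltransferase, had 250.5 and 253 (−0.11).

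Among cell cycle and ubiquitin genes, cyclin E1 was higher by both of its probes. CCNE1 drives entry into S phase with CDK2. Its probes had 90.4 and 88.6 in control cells against 115 and 117 on the CDR1AS array. Their log2 ratios were 0.31 and 0.37 and their deposited folds 1.79 and 2.01. Both probes were under 2 times the limit, and the log2 ratio of CCNE1 was 0.07 after local background subtraction. SKP2, the F-box protein that targets the inhibitor CDKN1B for breakdown, was lower by both probes. The first had 285 and 269.6 (−0.21), and the second had 109 and 97.5 (−0.28), with deposited folds of 0.876 and 0.627. UBE2A, a ubiquitin-conjugating enzyme that acts with RAD18, had 1212 and 1143 (−0.21). The cullin gene CUL5 (123 and 135, 0.03) and the proteasome activator gene PSME3 (97.5 and 109, 0.08) were close to 0.

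Of 4 genes of DNA repair and cell death, 1 had a log2 ratio above 0 and 3 below, where 47.2% of all genes lay above 0. VDAC1, the channel of the outer mitochondrial membrane, had 2922 in control cells and 2432 in CDR1AS cells, a 1.28-fold difference (−0.35). PARP1, which marks DNA breaks, had 617 and 605 (−0.15), and XRCC2, which acts in recombination repair, had 224 and 256 (0.08). BCL2, which blocks the mitochondrial route of apoptosis, was dim. Its probes gave 85.9 and 85.0 (−0.11), and 81.6 and 87.3 (0.02), and the third was not above background on either array.

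KEAP1, the ubiquitin ligase adaptor that holds NFE2L2 (NRF2) low, had 647 in control cells and 575 in CDR1AS cells, a 1.23-fold difference (−0.30). The inflammasome sensor gene NLRP3 was close to background, at 73.0 and 76.2 (−0.02).

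Of the remaining targets, CKAP4 was higher by both probes. It encodes a membrane protein of the endoplasmic reticulum that also serves as a receptor at the cell surface. The first probe had 313 in control cells and 479 in CDR1AS cells (0.52, 1.44-fold), and the second had 90.5 and 109 (0.22). Deposited folds of 1.59 and 1.54 were close to each other, although the log2 ratios with the offset were not. The splicing factor gene SRSF1 had 2045 and 1984 (−0.16), and the calponin gene CNN3 had 667 and 730.3 (−0.01).

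**Figure D3:**
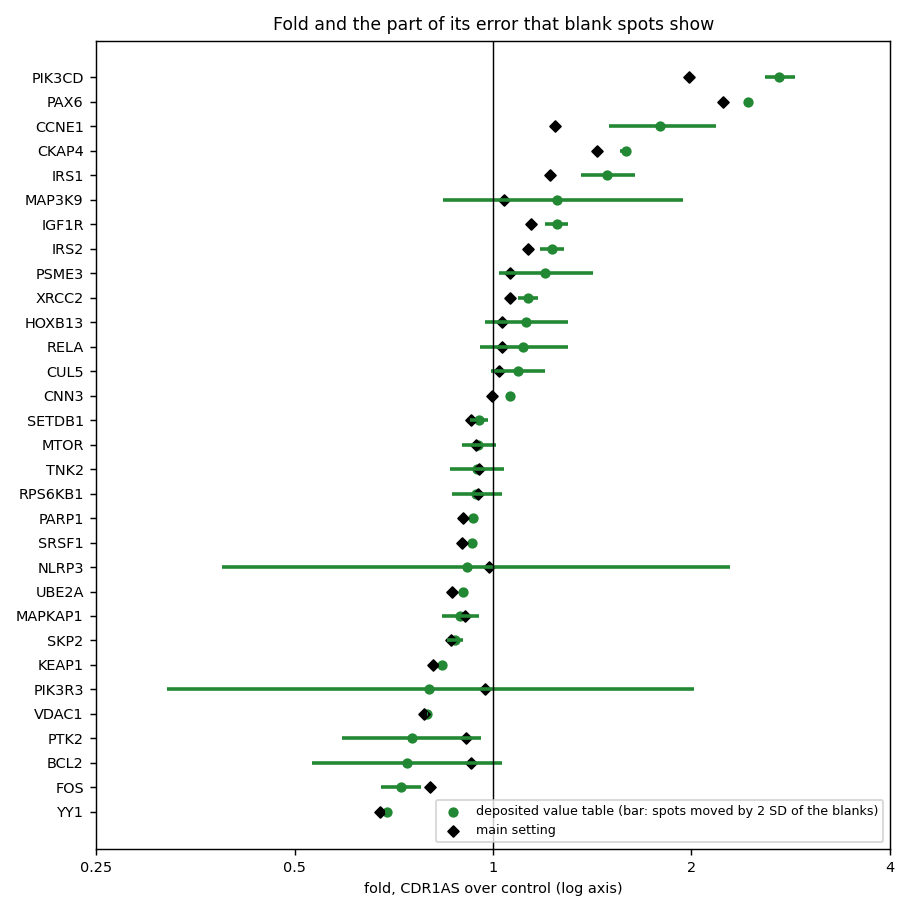
Fold of CDR1AS over control (log axis) for the 31 targets above background on both arrays, in the deposited table (circles) and with the offset of 50 (diamonds). Bars show the deposited fold when both spots are moved by 2 SD of the blank spots; for 10 of the 31 genes the bar includes 1.

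How far the blanks alone could move a fold was computed for the 31 targets above background on both arrays, by moving each spot by 2 SD of its blanks in opposite directions. For 10 targets the range included 1, for 10 it lay above 1 and for 11 below 1. The deposited fold of NLRP3, 0.912, ranged from 0.388 to 2.29, and that of PIK3R3, 0.800, from 0.320 to 2.02, so both ranges include a 2-fold difference in either direction. That of CCNE1 ranged from 1.5 to 2.18 at the first probe and from 1.67 to 2.46 at the second. The range of PAX6 was 2.42 to 2.46. These ranges hold the spread of blank spots only, and the spread of spots and of cultures comes on top.

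In 7 targets there were several probes. CCNE1, SKP2 and CKAP4 had the same direction at each probe, and FOS, IRS2 and the BCL2 probes above background did not. PIK3CD had 0.99 at 1 probe and 0.00 at the other.

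**Figure D4:**
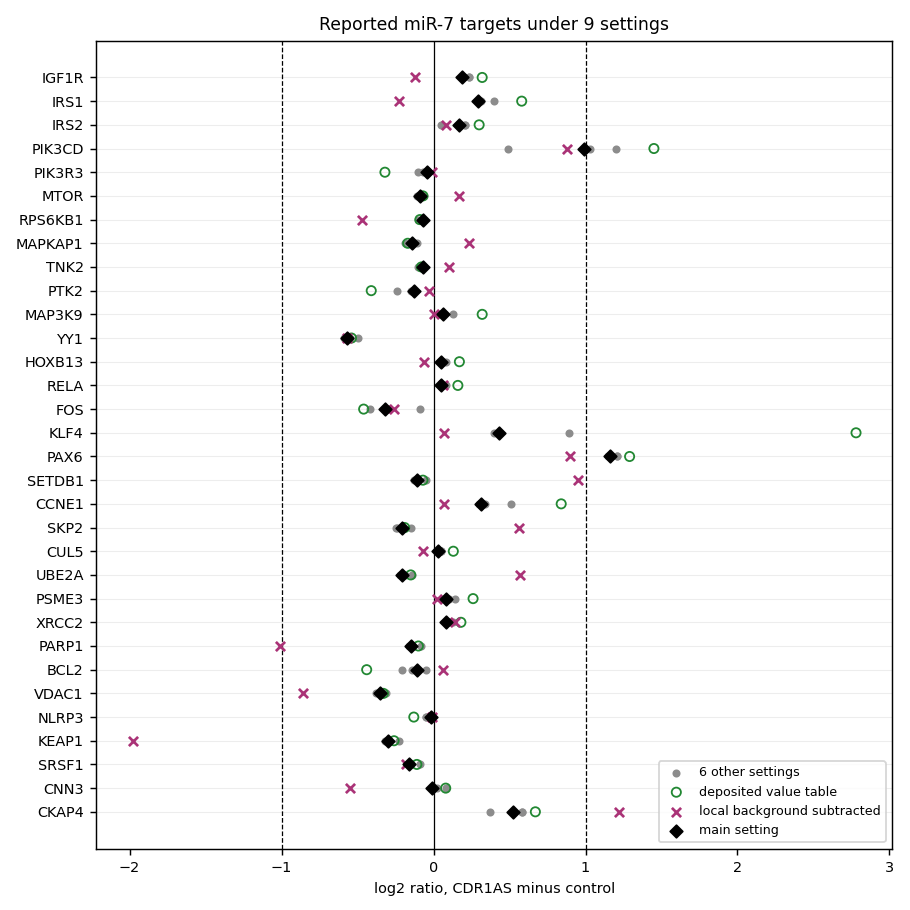
Log2 ratio (CDR1AS minus control) of the 32 measured targets in the main setting (black diamonds), in the deposited value table (open circles), with the local background subtracted (crosses) and in 6 other settings (grey). Crosses lie apart from the other points for KEAP1, PARP1, SETDB1, UBE2A and SKP2.

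The sign of the log2 ratio was the same in every setting that gave a value for 19 targets. For 10 of these that was all 9 settings, and for the other 9 it was 8, since they were too dim for the filter at 2 times the limit. Not all settings could change a sign. Both filter settings keep the main values, as does the median of probes for a target with 1 probe. Leaving out local background subtraction, the sign held in every setting with a value for 31 of the 32, with CNN3 (−0.01 to 0.08) the exception. Local background values differed between the arrays for the targets that moved most under that setting. At KEAP1 the local background was 125 in control cells and 405 in CDR1AS cells, and the log2 ratio moved from −0.30 to −1.98. At SETDB1 it was 253 and 96.4, and the ratio moved from −0.11 to 0.95. PARP1 moved from −0.15 to −1.01, UBE2A from −0.21 to 0.57, SKP2 from −0.21 to 0.56 and CKAP4 from 0.52 to 1.22. TNK2 (0.10), HOXB13 (−0.06), CUL5 (−0.07) and BCL2 (0.06) crossed 0 by small amounts. PAX6 was then at 0.90 and PIK3CD at 0.88. The local background column followed the spot's own brightness across probes (Pearson's r of log intensities was 0.977 for control cells and 0.942 for CDR1AS cells; probes are not replicates). Subtracting it may thus remove part of the signal, so a sign that turned under this setting alone does not decide the direction.

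Genes around the targets in the same pathways were counted beside all genes, of which 47.2% lay above 0 and 1.33% were at or past 2-fold. Of 14 measured insulin, IGF and ERBB signalling genes outside the target list, 5 lay above 0 and 9 below (median −0.06), and 0 were past 2-fold. The lowest was the growth factor gene IGF2 (−0.56, other probe −0.15) and the highest the scavenging receptor gene IGF2R (0.21). IGF2 was at 0.12 after local background subtraction. Of 16 further PI3K, AKT and mTOR genes, 6 lay above 0 and 10 below (median −0.06), and 0 were past 2-fold. EIF4EBP1, the translation repressor that mTOR phosphorylates, was highest, with 1150.4 in control cells and 2076 in CDR1AS cells (0.75), and was at 0.29 after local background subtraction. The kinase gene AKT1 was lowest, with 220 and 185 (−0.38), but was at 0.10 after local background subtraction.

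Of 16 measured effector and processing genes of microRNAs, 9 lay above 0 and 7 below (median 0.04), and 0 were past 2-fold, where 1.33% of all genes were. TNRC6C, a scaffold protein of the silencing complex, was highest (118 and 154, 0.32), and AGO1 lowest (110 and 101, −0.24). AGO2, the Argonaute that can cut its target, had 281 and 349 (0.21). TNRC6C (−0.02) and AGO2 (−0.05) were close to 0 after local background subtraction. DICER1 (0.09) and ZSWIM8 (0.04), a ligase adaptor in the decay of Argonaute bound to certain targets, were near 0. DROSHA was too close to background to be read, with 71.6 in control cells and 74.1 in CDR1AS cells (−0.04).

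Of 5 measured genes linked to miR-7 and CDR1AS, 2 were above 0 and 3 below. HNRNPK, which contains MIR7-1, had a log2 ratio of 0.02, but 1.08 after local background subtraction. A host message does not report the level of the mature microRNA. LINC00632, the host transcript of CDR1AS, was only just above the background limits of both arrays (69.7 against 69.1 in control cells and 73.3 against 72.1 in CDR1AS cells). QKI, an RNA-binding protein that favours the making of circular RNAs, was lowest at −0.56, with 100.2 in control cells and 76.5 in CDR1AS cells, close to its limit of 72.1. Its deposited value was 16.4 in control cells and 3.2 in CDR1AS cells.

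**Figure D5:**
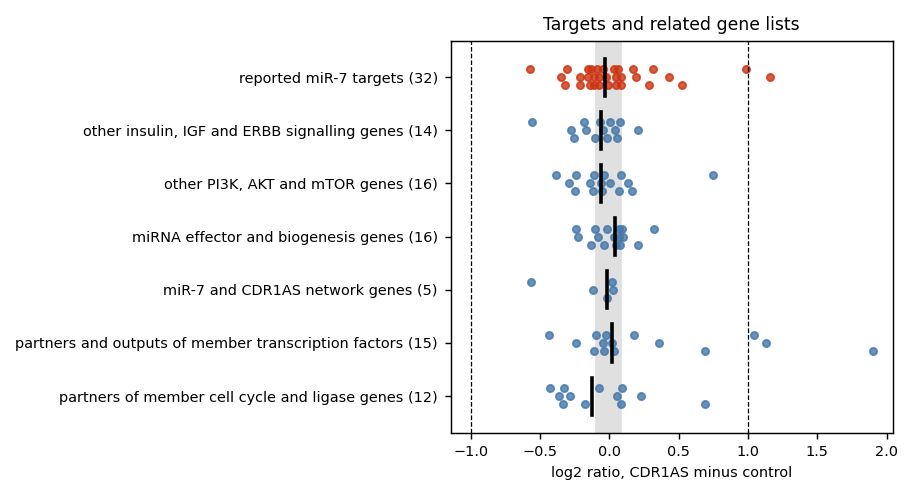
Log2 ratio (CDR1AS minus control) of each measured gene of the reported miR-7 targets (red) and of 6 related lists (blue), with the number of genes in brackets, the list's median as a black bar, the quartiles of all genes in grey and 2-fold as dashed lines. The 3 related genes past 2-fold, all higher, are JUN, TXNRD1 and NQO1.

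Of 15 partners and outputs of the targeted transcription factors and of KEAP1, 8 lay above 0 and 7 below (median 0.02). At or past 2-fold, 3 were higher (background 0.755%) and 0 lower (0.575%). The list was chosen with earlier results of these data known, so these counts describe the list only. JUN, which pairs with FOS in AP-1, had 183 in control cells and 703 in CDR1AS cells, 3.73-fold higher (1.90). NQO1 and TXNRD1 are antioxidant genes induced by NFE2L2, the protein that KEAP1 restrains. NQO1 was 2.06-fold higher (1.04) and TXNRD1 2.19-fold higher (1.13), although the other probe of TXNRD1, near background, gave 0.03. GCLM (0.69) and NFE2L2 itself (0.36) were higher too. After local background subtraction JUN was at 0.98, NQO1 at 4.13, TXNRD1 at −0.79, GCLM at 0.06 and NFE2L2 at 1.11. The NF-kB partner gene REL was lowest (−0.43, other probe −0.20), and NFKB1 (−0.11), NFKB2 (−0.04) and RELB (−0.02) were near 0.

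Of 12 partners of the cell cycle and ligase targets, 5 lay above 0 and 7 below (median −0.12), and 0 were past 2-fold, beside 47.2% above 0 and 1.33% past 2-fold over all genes. RAD18, the ligase partner of UBE2A, was highest (169.8 and 287, 0.69), with deposited values of 49.5 in control cells and 99.4 in CDR1AS cells, and was at 0.17 after local background subtraction. PSME1, a proteasome activator subunit related to PSME3, was lowest (−0.43). CDKN1B, the message of the protein that SKP2 removes, had a log2 ratio of −0.33, and CDK2, the kinase partner of CCNE1, of −0.07, or −1.90 after local background subtraction.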

How the data were processed

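Per the labels' protocols, total RNA was amplified as amino allyl RNA, dyed with Cy5 and hybridised to 1 one-colour array per group. The intensity in the deposited spot files is a median brightness at 635 nm, read at 3 gains per the file headers, which do not say how the gains were joined. The authors' deposited value table was found to be a straight line of each array's intensity: the blank level subtracted, times a factor that puts the median at 25, on a linear scale. Of the gene probes, 24459 were kept and 1 was left out for a flag; 21706 had 1 symbol, 2753 none and 0 several.

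Spots were corrected with normexp (limma 3.58.1, R 4.3.3) without the local background, with an offset of 50, then quantile normalized and put on a log2 scale. A gene was represented by its probe with the highest mean level and kept where 1 or both arrays had it above background. For a gene at background on 1 array, that side took the lowest value above background there, or its own if higher. The fold is then written "at least", which does not allow for the spread of spots. With 1 array per group no test was possible and the number of arrays limits precision, so genes were counted at 2-fold. The steps were tested on simulated data. Alternatives were local background subtraction, an offset of 16, scaling to a common median, cyclic loess, the deposited table, no filter, a filter at 2 times the limit and the median of a gene's probes. All targets were named by rule, and of the related lists any gene past 2-fold or otherwise the highest and lowest; other genes of these lists were named after their values were seen. The targets and lists were chosen with earlier results of these data known.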

Additional observations from a re-analysis of the deposited data

How the results depend on the processing

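The median log2 ratio of the targets stayed between −0.11 and 0.01 over the 9 settings. The count of targets at or past 2-fold higher was 2 with an offset of 16 and also when medians were scaled to be equal, and 3 by the deposited values, beside 1 in the main setting. The count lower was 2 with local background subtraction (KEAP1 and PARP1), beside 0. With the filter at 2 times the background limit on both arrays 17 targets were left, of which 6 were above 0, beside 14 of 32. Over all genes, those at or past 2-fold higher numbered 763 with local background subtraction, 229 with an offset of 16, 574 in the deposited table and 75 with that filter, beside 126. Those lower numbered 554, 172 and 385 in the first 3 of these settings, beside 96. Single targets moved by more than 0.10, the lowest SD of repeated control spots, in 22 of 32 cases with local background subtraction, 17 in the deposited table, 7 with an offset of 16 and 4 with the median of probes. None did with scaling or loess. The filters could not move a target, since they keep its main value. The comparison by seed match in the messages was not run, since message sequences were not used here. No paired analysis was possible because each group had 1 array.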
